A study of Mus musculus with 6 samples.

Results

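The trace amine-associated receptors (TAARs) are a small family of olfactory receptors, encoded by *Taar* genes, that lie outside the large families of odorant receptors (ORs). The 10 *Taar* genes considered here, *Taar2*, *Taar3*, *Taar4*, *Taar5*, *Taar6*, *Taar7a*, *Taar7b*, *Taar7d*, *Taar7e* and *Taar9*, were taken by symbol from the 24564 genes in the files, and cells were counted as positive when 1 of them reached 3 unique molecular identifiers (UMIs). Of 24830 cells kept in 6 libraries, 93 were positive. The main olfactory epithelium (MOE) of mice was profiled by single-cell RNA-seq in 2 swap, 2 control, 1 *gg8tTA* control and 1 *tetOP2* library. Swap mice were Cbx*/* and carried Cre, which in this design removes HP1β (*Cbx1*) and puts HP1α (*Cbx5*) in its place wherever Cre acts, the neuronal lineage including OSNs. The controls were not of 1 genotype: control replicate 1 was wild type with Cre, and control replicate 2 was Cbx*/* without Cre. The *gg8tTA* control mouse carried gg8-tTA, a transactivator expressed in immature olfactory sensory neurons (OSNs), and the *tetOP2* mouse carried gg8-tTA with tetOP2iresGFP, which drives the P2 receptor (*Olfr17*). Ages are not given in the sources used here.

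In a mature OSN a single receptor gene is transcribed, and the axons of all neurons that chose the same receptor meet in common glomeruli of the olfactory bulb. ORs are divided into class I, the fish-like receptors of 1 genomic cluster, whose neurons sit in the dorsal epithelium, and class II, whose neurons are spread over dorsal and ventral zones. All TAARs except *Taar1* are olfactory, and they bind volatile amines. Several are known from dorsal neurons whose glomeruli form a small domain of the dorsal bulb between the class I and class II domains. *Nqo1*, a quinone reductase, is a standard marker of dorsal OSNs, and *Nrp2*, a co-receptor for semaphorins, of ventral OSNs. *Avp*, which encodes the vasopressin precursor, was listed here with the ventral genes. Its share of cells below was no lower in class I than in class II neurons.

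The 10 genes lie in a single stretch of chromosome 10, chr10:23938572-24109534 of GRCm38 (mm10), and 9 of them have 1 exon while *Taar2* has 2. All 10 gene models in GENCODE M21 end at the stop codon, with 1014 to 1077 transcribed bases and no 3′ untranslated region beyond it, whereas the libraries were primed at the 3′ end of messages. The annotation the authors counted with is not given in the sources used here, and the part of the short gene models in the low counts below was not tested. The *Taar7* genes are near-identical copies. Between *Taar7a*, *Taar7b*, *Taar7d* and *Taar7e* the transcripts were 93.1% to 95.0% identical, and 29.5% to 53.9% of their 50-base windows occurred in the transcript of another gene, mostly another *Taar7* gene. Over the last 500 bases this share was 27.3% in *Taar7d*, 42.4% in *Taar7a*, 68.1% in *Taar7b* and 70.3% in *Taar7e*. The last 60 coding bases show how little separates them, with capitals at each base that differs from *Taar7d*:
Taar7d (chr10:24028239-24028298, plus strand): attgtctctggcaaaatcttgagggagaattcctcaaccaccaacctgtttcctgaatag
Taar7a (chr10:23992405-23992464, minus strand): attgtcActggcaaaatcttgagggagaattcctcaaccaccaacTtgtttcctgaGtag
Taar7b (chr10:24000956-24001015, plus strand): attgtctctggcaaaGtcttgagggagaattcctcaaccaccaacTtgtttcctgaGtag
Taar7e (chr10:24038631-24038690, plus strand): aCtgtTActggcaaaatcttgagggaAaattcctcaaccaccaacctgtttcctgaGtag
*Taar7a* and *Taar7b* each differ from *Taar7d* at 3 of these 60 bases and *Taar7e* at 5. Counts of single *Taar7* genes are therefore uncertain, and the *Taar7* genes are also given together. *Taar6* has no such copy: its closest relative was 78.6% identical, and 1 of its 989 windows occurred elsewhere.

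The libraries held 58498968 to 63277934 UMIs each for swap and control mice, 35298494 for the *gg8tTA* control and 32005196 for *tetOP2*. Mature OSN-like cells, clusters named by markers such as *Omp*, numbered 539 to 1168 per library and 4958 in all. Libraries shared 0 to 13 barcodes per pair. *Xist* stood at 1266 CPM (UMIs per 1000000 summed UMIs) in swap replicate 1, 1329 in the *gg8tTA* control and 1461 in *tetOP2* and at 0.299 to 0.611 CPM in the other libraries, so swap replicate 1 differed in sex from the other swap library and both controls. In mature OSNs *Cbx1* stood at 1.02 and 3.43 normalized CPM in swap and 83.3 and 152 in control libraries, and *Cbx5* at 71.6 and 88.1 against 19.99 and 28.3, in the direction the labels give.

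Of the 93 positive cells, 56 were mature OSN-like, 25 immature OSN-like, 9 were predicted doublets and 3 were sustentacular-like cells, the supporting cells of the epithelium. The positive sustentacular-like cells were 0.0922% of 3254 (95% exact Clopper-Pearson interval 0.0190% to 0.269%; all intervals and limits cover counting error only), and among 1124 horizontal basal-like cells there were 0, which by 3 counts of the total allows a share of up to 0.267%. In mature OSN-like cells the share was 1.13% of 4958 (0.854% to 1.46%), at median depths of 14701, 9683 and 12114 UMIs in the 3 cell types. ORs reached 3 UMIs in 10.7% of the same sustentacular-like cells. The labels give OSN as the cell type, but the libraries also hold these other types. A single positive mature cell, in control replicate 1, had *Olfr144* as its leading receptor and was the deepest of the 56 with 30382 UMIs. The other 55 had a *Taar* gene as their highest receptor and are called *Taar* neurons below. They numbered 9, 15, 6, 11, 11 and 3 in swap replicates 1 and 2, control replicates 1 and 2, the *gg8tTA* control and *tetOP2*, beside 3960 class II and 474 class I OR neurons chosen by the same minimum.

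*Taar6* was the choice of 32 of the 55 *Taar* neurons (58.2%, interval 44.1% to 71.3%). It led in every library, with 6, 8, 4, 6, 6 and 2 neurons in the order above. The *Taar7* genes followed with 18 neurons, 8 for *Taar7d*, 6 for *Taar7b*, 3 for *Taar7a* and 1 for *Taar7e*. *Taar4*, a receptor for phenylethylamine, was chosen in 2 neurons, and *Taar2*, *Taar5*, the trimethylamine receptor, and *Taar9* in 1 each. *Taar3* reached 3 UMIs in no cell and had 3 UMIs in all 6 libraries. Over all cells *Taar6* held 1043 UMIs, *Taar2* 153, *Taar7d* 85, *Taar7b* 69, *Taar9* 50, *Taar7a* 31, *Taar4* 23, *Taar7e* 17 and *Taar5* 9. *Taar2* came from few but strongly labelled cells: 55, 47 and 47 of its UMIs lay in swap replicate 1, control replicate 1 and control replicate 2, with 1 cell of 3 UMIs or more in each. Among *Taar* genes outside the list, *Taar8b* had 25 UMIs, *Taar7f* 23, *Taar8a* 6 and *Taar1* and *Taar8c* 0.

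The plot of chosen-gene UMIs by *Taar* gene shows each cell under 1 gene only. None of the 55 mature *Taar* neurons held a single UMI of a second *Taar* gene, listed or not, and none of the 23 immature *Taar* neurons did. No *Taar* neuron of either stage had an OR at 3 UMIs, with a highest OR count of 2. By definition a *Taar* neuron's highest receptor is a *Taar* gene, and 3 positive OSN-like cells with an OR at 3 UMIs fell outside it, the *Olfr144* cell and 2 immature cells, all in control replicate 1. Among the *Taar* neurons, 26 of the 55 mature cells (47.3%) had no OR UMI at all. These 26 were 8 of 9 and 8 of 15 *Taar* neurons of swap, 3 of 6 and 7 of 11 of control and 0 of 14 in the *gg8tTA* control and *tetOP2* libraries.

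**Figure D1:**
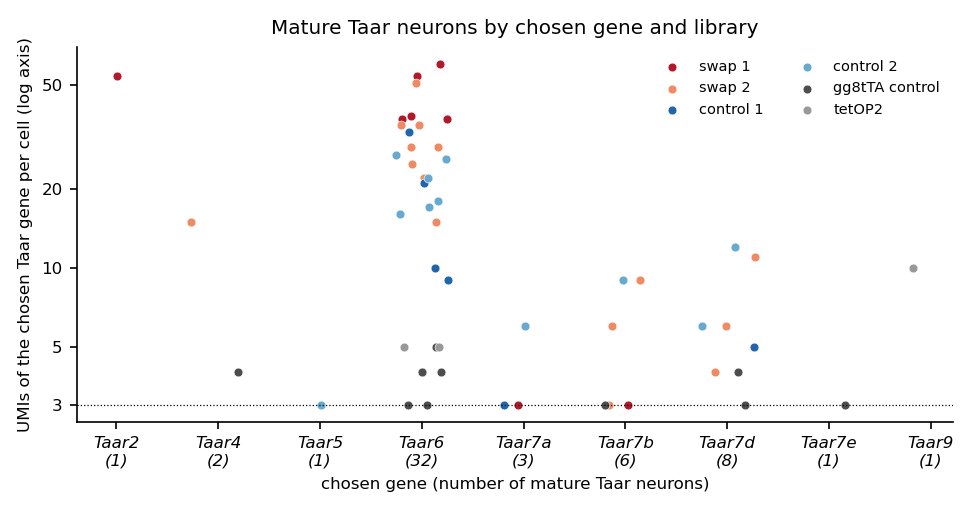
UMIs of the chosen *Taar* gene in each of the 55 mature *Taar* neurons (log axis), by chosen gene and coloured by library; the dotted line is the minimum of 3 UMIs. *Taar6* neurons reached up to 60 UMIs, while all *Taar7* neurons lay at 12 or below.

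OR UMIs besides the chosen receptor were compared between *Taar* and OR neurons of the same library, in cells thinned to 3000 UMIs. The mean per *Taar* neuron was 0, 0.2, 0.167, 0, 0.727 and 0.333 UMIs in the 6 libraries, in the order above, against 0.256, 0.361, 0.332, 0.456, 0.774 and 0.512 per OR neuron. *Taar* neurons were lower in 6 of 6 libraries, by 0.211 UMIs on average (0.238 ± 0.271 against 0.449 ± 0.183, SD, n = 6 libraries), and a two-sided exact permutation test with 6 paired libraries gave p = 0.03125, the smallest value it can give. The definition favours this direction, since a cell with more OR than *Taar* UMIs is no *Taar* neuron while an OR neuron may hold a second OR. With all 56 positive mature cells counted, an alternative chosen after seeing the data, the difference turned to 0.119 UMIs (p = 1 in the same exact test), as the *Olfr144* cell raised control replicate 1 to 2.14 UMIs. The difference therefore holds only for cells whose highest receptor was a *Taar* gene. Both families were highest in the *gg8tTA* control. Without thinning the means differed by −0.812 UMIs and p was 0.125 in the same exact test, with *tetOP2* at 3 UMIs per *Taar* neuron against 2.18 per OR neuron.

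Far fewer UMIs of the chosen receptor itself were counted in *Taar* neurons. The part of the short gene models, and of sequence shared between *Taar7* genes, in these counts was not tested. Thinned library medians were 0.5 to 8 UMIs in *Taar6* neurons and 0 to 3 in neurons of other *Taar* genes. Thinned, the library medians were 8, 3, 1, 3, 1 and 1 UMIs for *Taar* neurons and 16, 24, 18, 23, 24 and 27 for OR neurons. The ranges did not overlap, and the difference of 19.2 UMIs (2.83 ± 2.71 against 22 ± 4.15, SD, n = 6 libraries) gave p = 0.03125 in the exact paired permutation test. At full depth the medians were 4 to 37 UMIs against 60 to 102. In *tetOP2* 334 OR neurons had chosen *Olfr17*, the receptor its transgene drives. Without that library the difference, *Taar* minus OR, was −17.8 UMIs. The same exact test then gave p = 0.0625, the smallest value for 5 paired libraries. The plot of receptor UMIs paired by library shows both measures.

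**Figure D2:**
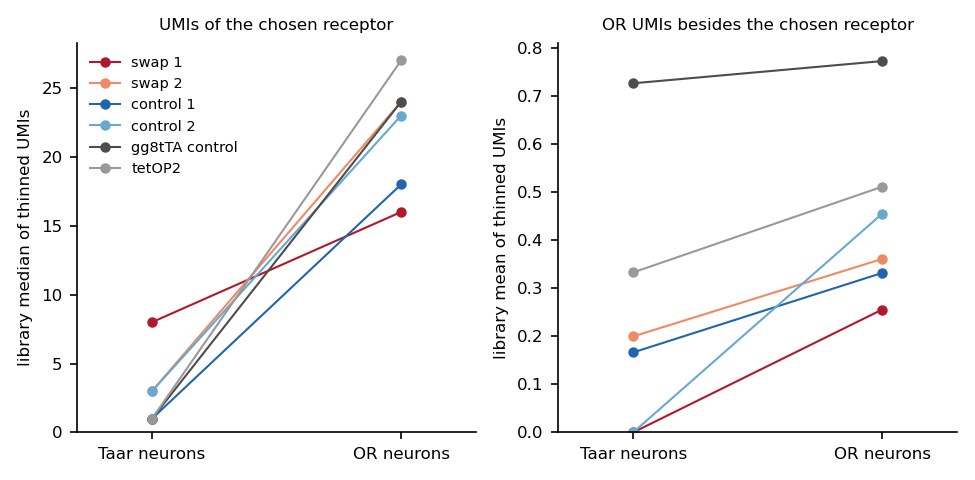
Left, library medians of the UMIs of the chosen receptor; right, library means of OR UMIs besides the chosen receptor, in cells thinned to 3000 UMIs, each line joining the *Taar* and OR neurons of 1 library. All 6 lines rise in both panels, from 1 to 8 up to 16 to 27 UMIs at left.

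*Taar6* levels per neuron set the libraries apart. Single *Taar6* neurons held 37 to 60 UMIs in swap replicate 1 (median 37.5), 15 to 51 in swap replicate 2 (median 29), 9 to 33 in control replicate 1 (median 15.5) and 16 to 27 in control replicate 2 (median 20). Both swap medians lay above both control medians, by 15.5 UMIs (33.3 ± 6.01 against 17.8 ± 3.18, SD, n = 2), but 2 against 2 libraries cannot give an exact permutation p below 0.333, and the observed p was 0.333. Thinned to 3000 UMIs the medians were 8 and 6.5 against 2.5 and 5.5, which is a difference of 3.25 UMIs with p = 0.333 in the same exact test. In the *gg8tTA* control and *tetOP2* libraries the medians were 4 and 5 UMIs, below every swap and control neuron. OR neurons there held medians of 95 and 99 UMIs of their own receptor, within the 60 to 102 of the other libraries. In *tetOP2* 334 of these OR neurons had chosen *Olfr17*, the receptor its transgene drives.

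**Figure D3:**
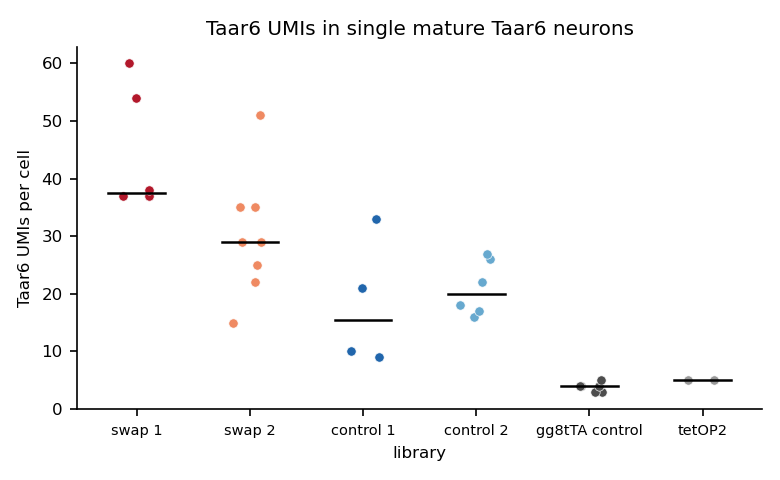
*Taar6* UMIs of each mature *Taar6* neuron by library, with the library median as a line. The swap medians are 37.5 and 29, the control medians 15.5 and 20, and all neurons of the *gg8tTA* control and *tetOP2* libraries lie at 5 or below.

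Swap and control libraries were then compared for the share of *Taar*-positive cells and for *Taar* expression. Positive cells were 1.36% and 1.59% of mature OSN-like cells in swap replicates 1 and 2 and 0.653% and 0.942% in control replicates 1 and 2. The groups did not overlap and differed by 0.675 percentage points (1.47% ± 0.165 against 0.797% ± 0.204, SD, n = 2), with p = 0.333 in the exact permutation test, the smallest it can give. Counting intervals of single libraries overlapped, from 0.622% to 2.56% in swap replicate 1 and from 0.471% to 1.68% in control replicate 2. The *gg8tTA* control, which shares neither genotype, had 2.04% (1.02% to 3.62%), above both swap libraries. The place of the *gg8tTA* control depended on the minimum. With 1 UMI it had 3.71%, 20 of 539 cells, above the 1.36% and 1.69% of swap replicates 1 and 2. With 5 UMIs it had 0.186%, 1 of 539 cells, below the 1.05% and 1.38% of swap replicates 1 and 2. Its 6 mature *Taar6* neurons held only 3 to 5 *Taar6* UMIs each, so the higher minimum mainly reflects low counts per cell there. The *tetOP2* share at 3 UMIs was 0.525% (0.108% to 1.53%), and *Olfr17* was the choice of 334 of its 571 mature OSN-like cells. With predicted doublets kept, the shares at 3 UMIs were 1.35% and 1.57% in swap replicates 1 and 2. Control replicate 1 then had 0.910%, 10 of 1099 cells, and control replicate 2 0.924%.

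Summed over all mature OSN-like cells, *Taar6* reached 33.6 and 20.6 normalized CPM in swap and 7.69 and 8.23 in control libraries. The swap libraries lay above both controls, with a log2 fold change of 1.77 (SE 0.34, n = 2 against 2). Here and below an SE is derived from the test statistic and is not a spread over libraries. The adjusted p of *Taar6* was 0.348 in the quasi-likelihood test of edgeR (Benjamini-Hochberg). That test called 0 of 12351 genes (0%), and 302 had an unadjusted p below 0.05. DESeq2, which called 174 genes, gave *Taar6* an adjusted p of 0.0011. Fewer *Taar6* neurons and less *Taar6* RNA per neuron cannot be told apart in this sum, and both measures above were higher in swap. *Taar7d*, at 0 and 1.97 against 0.566 and 1.18 normalized CPM, overlapped between groups (log2 fold change 0.24, SE 1.37, adjusted p = 1.00 in edgeR's test). Only these 2 of the 10 members passed the filter on low counts. The other 8 were too sparse: *Taar2*, for example, had 54 UMIs in mature cells of swap replicate 1, 0 in swap replicate 2, 0 in control replicate 1 and 1 in control replicate 2.

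Maturity was compared as the mature share of all OSN-like cells with an assigned receptor. It was 64.3%, 88.2%, 54.5%, 84.6%, 57.9% and 75.0% for *Taar* neurons in the 6 libraries and 48.3%, 74.5%, 62.2%, 82.2%, 54.0% and 61.0% for OR neurons. The mature share was higher for *Taar* neurons in 5 of 6 libraries and lower in control replicate 1. A listed *Taar* gene had 1 UMI or more in 54 immature and 75 mature OSN-like cells, and 3 or more in 25 and 56. The part of the minimum of 3 UMIs in the mature share was not tested. The difference of 7.06 percentage points (70.8% ± 14.04 against 63.7% ± 12.6, SD, n = 6) did not pass the exact paired permutation test (p = 0.156). *Omp*, the olfactory marker protein, did not pass the test against class II neurons (log2 fold change −0.14, SE 0.08, adjusted p = 0.463 in edgeR's test) or against class I neurons (0.04, SE 0.08, adjusted p = 0.875). *Gap43*, a growth cone protein of immature neurons, was higher against class II (0.66, SE 0.12, adjusted p = 2.16e-05) and class I neurons (1.09, SE 0.19, adjusted p = 3.16e-05), but with a robust fit of the spread its adjusted p was 0.334 and 0.248. It stood at 1008 CPM in the *Taar* neurons of swap replicate 1 and at 132 to 348 in the other 5 libraries. Of the 7 genes of the immature OSN list *Gap43* was the only one called in either comparison. The share of all tested genes called higher was 0.871% against class II and 2.31% against class I neurons.

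The shares of cells with *Nqo1* and *Nrp2* differed between *Taar* neurons and each OR class taken as a whole. Class II mixes dorsal and ventral neurons, and *Taar* neurons were not compared with its *Nqo1*-negative part. Of the 55 *Taar* neurons 32 had chosen *Taar6* and 18 a *Taar7* gene, so the pooled shares mainly describe those neurons. *Nqo1* was detected in 6 of 55 *Taar* neurons (10.9%, interval 4.11% to 22.2%), in 89.9% of class I and in 32.5% of class II neurons. *Nrp2* was detected in 49 of 55 (89.1%, 77.8% to 95.9%), against 14.98% of class I and 45.4% of class II neurons. *Avp* was detected in 0 of 55 *Taar* neurons, which by 3 counts of the total allows a share of up to 5.45%, and in 3.38% of class I and 2.70% of class II neurons, a difference not detectable in shares of 55 cells. Thinned to 3000 UMIs, where no *Taar* neuron was lost and 3 class I and 27 class II neurons were, *Nqo1* remained detectable in 9.09%, 85.8% and 27.7% and *Nrp2* in 54.5%, 5.52% and 19.1% of *Taar*, class I and class II neurons. In cell types other than OSNs *Nrp2* had a UMI in 6.61% of sustentacular-like and 1.60% of horizontal basal-like cells. *Nqo1* had a UMI in 27.4% and 23.6% of those cells, above the share in *Taar* neurons. The immature *Taar* neurons showed the same order, with *Nqo1* in 3 and *Nrp2* in 15 of 23.

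**Figure D4:**
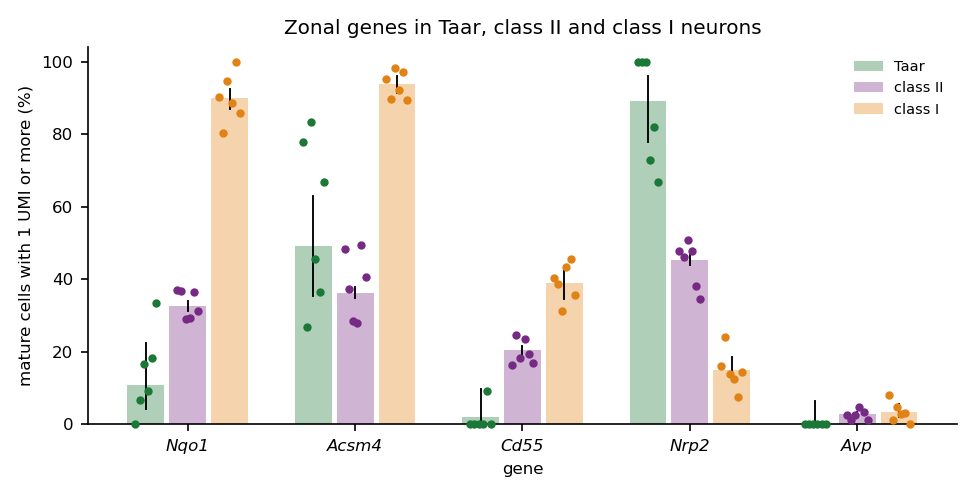
Share of mature cells with at least 1 UMI of 5 zonal genes in *Taar*, class II and class I neurons; bars are all libraries pooled with their 95% Clopper-Pearson interval, points are the 6 libraries in the order swap, control, *gg8tTA* control, *tetOP2*. *Nrp2* was found in 89.1% of *Taar* neurons and *Nqo1* in 10.9%. Of these 55 neurons 32 had chosen *Taar6* and 18 a *Taar7* gene.

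Summed per library, *Nqo1* stood at 0 and 20.8 CPM in swap *Taar* neurons, 95.9 and 119 in control *Taar* neurons, 50.6 in the *gg8tTA* control and 47.0 in *tetOP2*. Class II neurons held 376 to 602 CPM and class I neurons 1307 to 3198 CPM, and neither range overlapped with that of *Taar* neurons. The log2 fold change was −3.37 (SE 0.18, adjusted p = 3.28e-75 in edgeR's test) against class II and −5.18 (SE 0.19, adjusted p = 4.37e-27) against class I neurons. So small an adjusted p against class II neurons reflects counting error and not the spread over libraries. *Nrp2* stood at 141 to 412 CPM in *Taar* neurons, above 62.5 to 109 in class II and 7.81 to 89.9 in class I neurons, with log2 fold changes of 1.77 (SE 0.13) and 3.39 (SE 0.23), both called. *Cd55*, a complement regulator of dorsal OSNs, had 1 UMI in all *Taar* neurons, where the levels of class II neurons would give 83.3, an 83.3-fold deficit with a Poisson counting interval of 14.9 to 3289. *Avp* had 0 UMIs in *Taar* neurons, and its UMIs in class II neurons came from 107 of 3960 cells, so no fold is given.

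The *Taar* genes themselves differed. *Nqo1* was found in both *Taar4* neurons, in the *Taar9* neuron, in 2 of 8 *Taar7d* neurons and in 1 of 32 *Taar6* neurons with a single UMI, and 18 of the 39 *Nqo1* UMIs came from 1 *Taar7d* neuron of control replicate 2. *Nrp2* was found in 29 of 32 *Taar6* and 17 of 18 *Taar7* neurons, in 1 of 2 *Taar4* neurons and not in the *Taar9* neuron. *Acsm4*, an acyl-CoA synthetase of dorsal OSNs, was found in 16 of 32 *Taar6* and 6 of 18 *Taar7* neurons and in all 5 neurons of *Taar2*, *Taar4*, *Taar5* and *Taar9*, where it held 4 to 16 UMIs. Cells of different receptors come from the same libraries and most receptors have few cells, so these differences carry no test.

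Across all genes, 223 of 10904 (2.05%) were called between *Taar* and class II neurons, with the library as a block and receptor genes left out, where a call needed an adjusted p under 0.05 and a log2 fold change of more than 0.58 either way. Of these, 95 (0.871%) were higher and 128 (1.17%) lower in *Taar* neurons. The split depended on the scaling, with 92 higher and 210 lower under DESeq2's size factors and 63 higher and 30 lower in DESeq2. In the class I comparison 239 of 5531 genes (4.32%) were called, 128 (2.31%) higher and 111 (2.01%) lower. Both comparisons share the same *Taar* neurons. They had 115 calls in common, 51.6% of the class II calls and 48.1% of the class I calls.

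*Psmd14* and *Tbr1* led the genes higher than in class II neurons when ranked by adjusted p. *Psmd14* encodes the deubiquitinase subunit of the proteasome lid and *Tbr1* a T-box transcription factor best known from projection neurons of the cortex and from mitral cells. *Psmd14* stood at 1235, 960, 1690, 1192, 1258 and 1716 CPM in the *Taar* neurons of the 6 libraries and at 139, 113, 118, 103, 106 and 172 CPM in class II neurons. The families were separate in every library, with a log2 fold change of 3.27 (SE 0.10, adjusted p = 3.38e-241 in edgeR's test), and of 3.21 (SE 0.11) against class I neurons at 105 to 177 CPM. This adjusted p reflects counting error and not the spread over libraries, as does that of *Tbr1* below. *Tbr1* stood at 58.8, 51.9, 47.9, 92.2, 166 and 306 CPM in *Taar* neurons. In class II neurons it lay between 0 and 0.212 CPM in the swap and control libraries, at 1.83 in the *gg8tTA* control and at 12.7 in *tetOP2*, where most class II neurons had chosen *Olfr17*. Its log2 fold change was 6.34 (SE 0.36, adjusted p = 2.33e-66), and it did not pass the filter on low counts in the class I comparison. Both genes kept their call under all 17 alternatives of the class II comparison, with log2 fold changes of 3.05 to 3.41 and 5.87 to 8.82. Among the 17, leaving out *Taar* neurons with an OR at 3 UMIs removed no cell and so repeated the main fit.

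**Figure D5:**
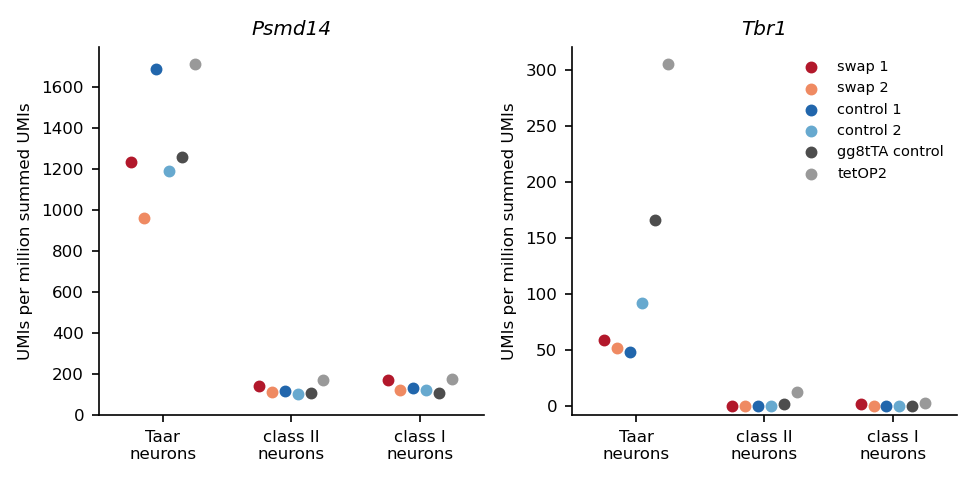
*Psmd14* and *Tbr1* UMIs per 1000000 summed UMIs in *Taar*, class II and class I neurons, 1 point per library. *Psmd14* lies at 960 to 1716 in *Taar* neurons and at 103 to 177 in both OR classes, and *Tbr1* at 47.9 to 306 against at most 12.7.

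The genes are neighbours on chromosome 2, at chr2:61711694-61800376 (*Psmd14*) and chr2:61802863-61814114 (*Tbr1*) of GRCm38.p6 in RefSeq, with 2486 bases between them. The difference held for cells that chose *Taar6* and for cells that chose another *Taar* gene. The log2 fold changes were 3.21 and 3.05 for *Psmd14* and 7.35 and 7.39 for *Tbr1*. Unlike the fit of all *Taar* neurons, both fits left out *tetOP2*, which had fewer than 3 such cells. The fit without *Taar6* neurons also left out control replicate 1 for that reason. All 55 *Taar* neurons held *Psmd14* UMIs, with a median of 15 and a range of 1 to 41, whereas the median OR neuron held 1. At 8 UMIs or more were 51 of 55 *Taar* neurons, 3 of 474 class I and 26 of 3960 class II neurons. That level was chosen after the values were seen. The single *tetOP2* library held 2 of these class I and 24 of these class II neurons. The *Taar* neurons below it were 1 *Taar6* neuron at 7 UMIs, 2 *Taar7b* neurons at 2 and 3, all in swap replicate 2, and the single *Taar5* neuron at 1. *Tbr1* was found in 34 of 55 *Taar* neurons, 2 of 474 class I and 51 of 3960 class II neurons, and in 15 of 3254 sustentacular-like cells (0.461%). Of the 51 class II neurons with *Tbr1*, 41 were of *tetOP2*. Among *Taar* neurons *Tbr1* was found in 19 of 32 *Taar6* and 11 of 18 *Taar7* neurons. In the 23 immature *Taar* neurons the median *Psmd14* count was 3 and 10 cells held *Tbr1*, against 22 of 2258 immature class II neurons. The 4 mature cells that chose a *Taar* gene outside the list held 15 to 34 *Psmd14* UMIs.

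The other genes named by rule among those higher than in class II neurons were *Tmbim6*, an inhibitor of cell death in the endoplasmic reticulum, *Nrp2* and *Sln*, the calcium pump regulator sarcolipin. *Tmbim6* stood at 2687 to 5125 CPM against 1040 to 1736, with a log2 fold change of 1.298 (SE 0.08) and of 1.39 (SE 0.09) against class I neurons, and was higher in 6 of 6 libraries in both. *Sln* was found in 5 of 55 *Taar* neurons of 3 libraries, and its call was lost in DESeq2 (adjusted p = 0.335) and in the robust fit (adjusted p = 0.164). Lower genes were *Nqo1*, *Cd55*, the calcium-binding protein *S100a5*, the Purkinje cell protein-like gene *Pcp4l1* and the histone gene *Hist2h2be*. *Hist2h2be* stood at 152 to 799 CPM against 422 to 1270 and was lower in 6 of 6 libraries. Its log2 fold change was −1.17 (SE 0.12). Against class I neurons the rule also named *Tenm2*, a teneurin, and the transcription factor *Nfib* as higher (1.65, SE 0.12, and 3.42, SE 0.26), and the tubulin-binding *Tppp3* and the neuropeptide gene *Cartpt* as lower (−2.37, SE 0.20, and −1.21, SE 0.11).

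In the activity-dependent list, genes whose transcription follows the stimulation of OSNs, 5 of 8 tested members were lower than in class II neurons and 0 higher. The median log2 fold change was −0.78 beside −0.12 over all genes tested, of which 1.17% were lower and 0.871% higher. The same 5, *S100a5*, *Pcp4l1*, *Lrrc3b*, *Fos* and *Egr1*, were lower than in class I neurons, out of 7 tested. Of all genes tested in that comparison, 2.01% were lower and 2.31% higher. *S100a5* stood at 5025, 3279, 3523, 17304, 4137 and 1622 CPM in *Taar* neurons and at 12227, 8881, 12725, 18483, 9938 and 12524 CPM in class II neurons. It was lower in 6 of 6 libraries, but control replicate 2 lay far above the others. There a single *Taar5* neuron held 1738 of the 4792 *S100a5* UMIs of all 55 cells. The log2 fold change was −1.53 (SE 0.09), called in edgeR's test and in DESeq2 (adjusted p = 6.99e-05) and not in the robust fit (adjusted p = 0.170), and *Pcp4l1*, with a log2 fold change of −1.19, also lost its call there (adjusted p = 0.212). In neurons of *Taar6* the median count of *S100a5* was 6, with 26 of 32 positive, while the 6 *Taar7b* neurons had a median of 149 and the 2 *Taar4* neurons held 146 and 466. *Fos* and *Egr1* were lower than in class II neurons in 5 of 6 libraries and lost their calls against class II neurons in DESeq2 (adjusted p = 0.249 and 0.400). For the class I comparison the robust fit did not call *S100a5*, *Pcp4l1* or *Fos* (adjusted p = 0.0676, 0.0889 and 0.183).

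Axon guidance and sorting genes were divided. Of 20 tested against class II neurons 4 were higher, *Nrp2*, *Tenm2*, *Tenm4* and the protocadherin *Pcdh17*. Another 2 were lower, *Pcdh10* and the semaphorin receptor *Nrp1*, and 14 did not pass. Over all genes tested 0.871% were higher and 1.17% lower. The list had a median log2 fold change of −0.09 beside −0.12 over all genes tested. *Tenm2* stood at 235 to 810 CPM against 146 to 322 (log2 fold change 1.205, SE 0.10) and *Tenm4* at 47.0 to 224 against 19.0 to 56.0 (1.61, SE 0.21), both higher in 6 of 6 libraries. The protocadherin *Pcdh10* stood at 32.9 to 202 against 179 to 339 CPM (−1.72, SE 0.17), lower in 6 of 6. *Nrp1* lost its call in DESeq2 (adjusted p = 0.632), as did *Pcdh17* (0.834). Compared with class I neurons, the same 4 of 16 genes tested were higher, and *Pcdh10* and *Robo2* lower. *Robo2* was not called in DESeq2 (adjusted p = 0.0709). Over all genes in that comparison 2.31% were higher and 2.01% lower.

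The zonal lists were split. Over all genes tested, 0.871% were higher and 1.17% lower than in class II neurons, and 2.31% higher and 2.01% lower than in class I neurons. In the dorsal zone list, 2 of 7 genes, *Nqo1* and *Cd55*, were lower than in class II neurons and 0 higher, and *Acsm4* did not pass the test (log2 fold change 0.14, SE 0.15, adjusted p = 0.749 in edgeR's test). Against class I neurons all 6 tested members were lower, *Acsm4* by a log2 fold change of −1.72 (SE 0.19), with a list median of −1.46 beside −0.01 over all genes. In the robust fit *Acsm4* did not pass there (adjusted p = 0.0968). In the ventral zone list 1 of 11 genes, *Nrp2*, was higher and 4, *Pcp4l1*, *Avp*, *Nfix* and *Rprm*, were lower than in class II neurons, with *Rprm* not called in DESeq2 (adjusted p = 0.284). The call of *Avp* rests on sums over few positive cells, and its share of cells did not differ detectably at 55 *Taar* neurons. The transcription factor *Nfix* stood at 109 to 329 against 289 to 441 CPM (−0.79, SE 0.13), and *Ncam2* (0.32, SE 0.18, adjusted p = 0.447) and *Cidea* (−0.42, SE 0.15, adjusted p = 0.122) did not pass. Against class I neurons 5 of 8, *Nrp2*, *Nfib*, *Nfix*, *Ncam2* and *Ifi27*, were higher, with a list median of 2.87. The 2 lower genes in this comparison were *Pcp4l1*, also in the activity-dependent list, and *Rprm*. *Nfix* rose there by 2.80 (SE 0.25) and *Ncam2* by 3.33 (SE 0.30) on the log2 scale, and *Cidea* gave 0.62 (SE 0.21, adjusted p = 0.0709).

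In the signalling and receptor choice lists, 0 to 2 genes were called per list and comparison. Over all genes tested, 2.05% were called against class II neurons and 4.32% against class I neurons. In lists of 13 to 15 tested genes, 1 call is already a larger share than these. Against class II neurons the list medians of the log2 fold change were −0.17 and −0.04, beside −0.12 over all genes tested. Of 15 olfactory signalling genes tested against class II neurons, 1, the stomatin family member *Stoml3*, was lower (−0.62, SE 0.16) and lost its call in DESeq2 (adjusted p = 0.621), and of 13 tested against class I neurons 0 were called. Of 15 receptor trafficking and choice genes, *Ddit3*, a factor of the unfolded protein response, was higher than in class II neurons (0.69, SE 0.12; DESeq2 adjusted p = 0.106) and *Ebf1*, which binds receptor gene promoters and enhancers, lower (−0.62, SE 0.12; DESeq2 adjusted p = 0.0886). In the class I comparison *Ddit3* and *Rtp1*, the receptor transporter, were higher, with *Rtp1* called in 7 of 14 alternatives.

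Whether the difference between *Taar* and OR neurons itself differed between swap and control was tested as an interaction. Of 10691 genes 6 were called (0.0561%), 2 (0.0187%) with a higher and 4 (0.0374%) with a lower *Taar* to OR ratio in swap. *Nqo1* was among the latter, at 0 and 20.8 CPM in swap against 95.9 and 119 in control *Taar* neurons, while OR neurons held 598 and 694 against 545 and 571, which gives an interaction of −3.30 on the log2 scale (SE 0.65, adjusted p = 0.000966). These *Taar* sums rest on 0, 4, 8 and 18 UMIs, each nonzero sum coming from 1 cell. With DESeq2 the adjusted p was 0.808. *Psmd14* (−0.53, SE 0.22), *Tbr1* (−1.31, SE 1.77), *Nrp2* (0.15, SE 0.28) and *S100a5* (−0.50, SE 0.30) each had an adjusted p of 1 in edgeR's interaction test.

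*Psmd14* was also high in some cells without a detected *Taar* choice, by a level of 8 UMIs chosen after the values were seen. Of 403 mature OSN-like cells with no receptor at 3 UMIs, 26 held 8 or more *Psmd14* UMIs. *Tbr1* was found in 20 of these 26 and 1 or 2 UMIs of some *Taar* gene in 14, against 3 and 4 of the other 377. *Nrp2* was found in 19, *Nqo1* in 9 and *Avp* in 0 of the 26. These cells made up 4, 4, 4, 7, 5 and 2 per library. Counted together with the *Taar* neurons they gave 1.96% and 2.01% of mature OSN-like cells in swap and 0.933% and 1.54% in control libraries (p = 0.333 in the exact permutation test).

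In *tetOP2* the same *Psmd14* level was found in *Olfr17* neurons. Of the 334 mature neurons that chose *Olfr17*, 21 (6.29%, interval 3.93% to 9.45%) held 8 or more *Psmd14* UMIs, 15 of these 21 also held *Tbr1*, 15 held *Nrp2*, 2 held *Nqo1*, and 1 held a UMI of a listed *Taar* gene. Neurons of other ORs reached that level in 5 of 213 cells in *tetOP2* and in 1 of 476 in the *gg8tTA* control. *Tbr1* was found in 35 of the 334 *Olfr17* neurons and in 7 of the 213 others. In sustentacular-like cells of *tetOP2*, *Tbr1* was found in 5 of 445 (1.12%), and 2 of those 445 held 8 or more *Psmd14* UMIs. *Olfr17* itself had a UMI in 62.2% of these sustentacular-like cells against 0.317% in the *gg8tTA* control, and the *Olfr17* counts of these 21 neurons ran from 3 to 144 with a median of 101. Of the 3 *Taar* neurons in *tetOP2* 2 held *Olfr17*, at 4 UMIs in all. Over all mature OSN-like cells, 5.43% (3.72% to 7.62%) reached 8 *Psmd14* UMIs in *tetOP2*, 3.15% in the *gg8tTA* control and 1.03% to 2.71% in swap and control libraries. With 1 library per genotype there is no test of these shares.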

How the data were processed

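Single cells of the main olfactory epithelium were dissociated with papain and profiled with the 10x Chromium v3 kit in 6 libraries. The study's methods describe whole epithelium, while the series' design text speaks of sorted cells. The authors aligned reads with Cell Ranger, introns included, to mm10, and deposited raw counts of UMIs per gene and barcode. Part of the genotype labels is not reported here. Each group's libraries are biological replicates by the study's methods.

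Barcodes were kept from 1000 UMIs and 500 genes upwards, predicted doublets were removed, and Leiden clusters were named by marker genes (Python 3.11.15, scikit-learn 1.9.0, leidenalg 0.10.2). The chosen receptor was the *Taar* or OR gene with the most UMIs, at least 3. OR neurons held no listed *Taar* gene at 3 UMIs, and class I ORs were those of MOR families up to 42 on chromosome 7. Cells are not replicates. UMIs were summed per library and family and tested with edgeR 4.0.16 (quasi-likelihood, TMM, filterByExpr, R 4.3.3), with *Taar* and OR genes left out of family comparisons and the library as a block. Calls needed an adjusted p (Benjamini-Hochberg) under 0.05 and a log2 fold change of more than 0.58 either way. The SE of a log2 fold change is its absolute value divided by the square root of the F statistic of edgeR's test. It does not measure the spread between libraries. CPM are UMIs per 1000000 summed UMIs, or TMM-normalized where called normalized. Where the fitted spread was common to all genes, very small p-values reflect counting error, and a robust fit was added. Library values were compared by exact permutation tests, after thinning cells to 3000 UMIs where depth matters. The scripts were tested on simulated data.

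Alternatives were DESeq2 1.42.0, no filter on low counts, DESeq2's size factors, an *Omp* gate for maturity, other UMI minimums, doublets kept, swap and control libraries only, a replicate block and leaving out each library. The robust fit, the split by *Taar6*, the count with receptorless cells and the OR UMIs of all *Taar*-positive cells were chosen after seeing the data. Named genes were the 10 members, *Nqo1*, *Avp*, *Nrp2*, *Acsm4*, *Cd55*, *Ncam2*, *Nfix*, *Cidea*, *Omp* and *Gap43*, the 5 called genes per direction with the smallest adjusted p (3 for the interaction), and called members of the gene lists. The members and lists were chosen with earlier results of these data known. Sequences and coordinates of *Taar* genes are from GENCODE M21 on GRCm38.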

Additional observations from a re-analysis of the deposited data

Results flagged for a closer look

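The difference between swap and control libraries was not the same in *Taar* and OR neurons for 6 genes, by the interaction test in edgeR (adjusted p below 0.05), and a single cell carried most of the counts in several of them. *Fxyd2*, a regulator of the sodium pump, had an interaction of −15.5 on the log2 scale (SE 1.18), with 71 UMIs that all lay in the *Taar5* neuron of control replicate 2 and 0 in the *Taar* neurons of the other swap and control libraries. *Ppa1*, a pyrophosphatase, had −2.14 (SE 0.26), at 597 and 581 CPM in swap and 647 and 3294 CPM in control *Taar* neurons, and the same *Taar5* neuron held 428 of its 826 UMIs in *Taar* neurons. *Wfdc18* had 3.92 (SE 0.71), and 65 of its 90 UMIs lay in 1 *Taar6* neuron of swap replicate 1. *Nqo1* had −3.30 (SE 0.65), with the values given above. *Gap43* had 1.42 (SE 0.29), at 1008 and 348 CPM in swap and 276 and 132 CPM in control *Taar* neurons, while OR neurons held 266 and 174 against 218 and 144 CPM. *Acsm4* had −1.55 (SE 0.32), at 286 and 51.9 CPM in swap and 300 and 310 CPM in control *Taar* neurons, while OR neurons held 278 and 178 against 201 and 134 CPM. In the robust fit *Fxyd2* and *Ppa1* were not called (adjusted p = 1 for both) and the other 4 were. DESeq2 and the fit with the replicate block called none of the 6. No group had 4 or more libraries, so single libraries were not checked for standing apart.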

How the results depend on the processing

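The limits lie in the small number of cells: the 55 *Taar* neurons gave 3 to 15 cells per library, and 8 of the 10 members were too sparse to test between genotypes. Swap replicate 1 differs in sex from the other swap and control libraries, and the controls differ in genotype, which 2 libraries per group cannot tell apart from the *Cbx* alleles.

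The share of *Taar*-positive cells stayed higher in swap under every alternative run, by 0.257 to 0.819 percentage points. With the replicate block its p was 0.5. Of the genes called between swap and control, DESeq2 gave 174, the fit without a filter 73 and leaving out 1 library 205 to 267, each against 0. With 1 library left out an arm holds 1 sample, which is then assumed to vary like the other group, so these last counts have no spread of their own in that arm. The replicate block gave 0 for swap against control and 0 for the interaction, where DESeq2 also gave 0. The deviations of same-numbered libraries, not their expression levels, correlated at r = 0.357 over 12351 genes. The mature share of OR neurons was 48.3% and 62.2% in swap and control replicates 1, and 74.5% and 82.2% in replicates 2. The labels name no shared batch, and with 2 numbers what same-numbered libraries share was not tested.

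Against class II neurons DESeq2 called 93 genes, no filter 419, the *Omp* gate 407 and *Taar* neurons without *Taar6* neurons 123, against 223. The fit without *Taar6* neurons also lacked control replicate 1 and *tetOP2*. Leaving out 1 library gave 163 to 229. Against class I neurons leaving out 1 library gave 163 to 263. OR UMIs besides the chosen receptor differed by −0.156 with a minimum of 5 UMIs and −0.812 without thinning, which did not pass, and by 0.119, in the opposite direction, with all *Taar*-positive cells counted. In swap and control libraries only they differed by −0.260, and by −0.243 to −0.162 when 1 library was left out, where 4 or 5 libraries cannot give a p below 0.125 or 0.0625. The chosen receptor's UMIs differed by −16.5 in those 4 libraries and by −21.4 to −17.8 when 1 library was left out, under the same limits on p. The mature share differed by 9.05 points with doublets kept, which passed, and by 5.28 to 9.99 when 1 library was left out. The cause of these shifts was not tested beyond the smaller designs.

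Of 980 alternative values for named genes 872 kept direction and side of the threshold, 91 lost and 6 gained their call and 11 turned sign. *Taar7d*, swap against control, turned to −0.23 with the replicate block, −6.39 without swap replicate 2 and −0.18 without control replicate 1, within −6.39 to 1.16 over single libraries left out. Acsm4, Taar against class II, turned to −0.000984 without a filter, −0.22 for *Taar6* neurons only, −0.00169 without control replicate 1 and −0.29 without control replicate 2, within −0.29 to 0.42. *Ncam2* against class II neurons turned to −0.035 without swap replicate 2, within −0.035 to 0.46. *Omp* turned to −0.078 against class I neurons and 0.0023 in the interaction without a filter, and to 0.0023 against class II neurons in DESeq2.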
